A study of Homo sapiens with 16 samples.

Results

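MYC, a transcription factor, and the genes that build ribosomes were followed in 2 breast cancer cell lines given MitoQ. The module was a list of 41 gene symbols, chosen by function with earlier results of these data known. Its shares beside those of all genes are therefore a description. The symbols were matched to those of the count table. Of the 41, 40 were among the table's 35106 gene rows, and RRN3 was not analysed here. All 40 passed the filter on low counts and were tested in every comparison.

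MYC binds DNA as a dimer with MAX, often at E-box sequences, and is known for raising the transcription of genes for ribosome biogenesis, growth and metabolism. Ribosomes are built mainly in the nucleolus, where RNA polymerase I makes the ribosomal RNA precursor. Small nucleolar RNPs then modify it, the small subunit processome cuts it and folds it into the 40S subunit, and a separate set of factors matures the 60S subunit.

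RNA from MDA-MB-231 cells, a triple-negative line with mesenchymal features, and from SKBR3 cells, a line with amplified ERBB2, was sequenced in 16 libraries. The 4 groups were MDA-MB-231 cells with 500 nM MitoQ for 48 h (n = 5), MDA-MB-231 controls (n = 5), SKBR3 cells with 500 nM MitoQ for 48 h (n = 3) and SKBR3 controls (n = 3). MitoQ is a ubiquinone-like antioxidant joined to a lipophilic cation that carries it into mitochondria. What the controls received is not stated in the labels. All cells were grown in DMEM with 4.5 g/L glucose and 10% fetal bovine serum. MDA-MB-231 cells were at passage 25 and SKBR3 cells at passage 10, and the effects of line and of passage cannot be told apart. The labels do not say that replicates were separate cultures, so p-values measure the spread between these libraries, which may be technical.

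The libraries held 14723152 to 29294865 estimated counts, and the lowest member count in any library was 299, for RRP9. The lines matched their labels. ERBB2 lay at 5510 to 5931 normalised CPM, counts scaled to library sizes adjusted by TMM, with MitoQ and 4969 to 5871 CPM in controls of SKBR3, and below 60 CPM in MDA-MB-231. VIM, which marks mesenchymal cells, lay at 2959 to 3592 CPM with MitoQ and 3318 to 3547 CPM in controls of MDA-MB-231, and below 1 CPM in SKBR3. The 6 markers of MDA-MB-231 summed to 41.6 to 47.9 CPM with MitoQ and 21.1 to 23.3 CPM in controls of SKBR3. Most of that sum was CD44, which averaged 37.6 ± 3.07 CPM with MitoQ and 16.9 ± 1.25 CPM in controls (SD, n = 3 each), with a log2 fold change of 1.12 ± 0.071 (adjusted p = 2.01e-07, edgeR). The part of this shift in the SKBR3 results was not tested. Among leukocyte and endothelial markers, CDH5 stood out at 19.8 to 25.1 CPM with MitoQ and 15.9 to 20.1 CPM in controls of SKBR3. The leukocyte markers PTPRC, CD3E and LYZ stayed at or below 1.05 CPM in all 16 libraries. SKBR3 control 3 lay nearer to the MitoQ libraries on the first principal component of the SKBR3 libraries, at -6.88, against -17.8 and -17.0 for the other controls. Counts from mitochondrially encoded genes made up 1.11% ± 0.134 of the total with MitoQ and 3.31% ± 0.233 in controls of MDA-MB-231 (SD, n = 5 each), and 5.19% ± 0.059 with MitoQ and 6.46% ± 0.717 in controls of SKBR3 (SD, n = 3 each).

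Promoter sequences are shown for the members at the far ends of the treatment results that RefSeq's promoter table covered. They are the 250 bases before the RefSeq transcript start on GRCh38.p14, credited to RefSeq, with 38 of the 40 members matched. MRTO4 fell most in MDA-MB-231 (chr1:19251555-19251804, plus strand), DDX10 fell most in SKBR3 (chr11:108664819-108665068, plus strand), and UTP20 was among the 4 lowest in both lines (chr12:101279855-101280104, plus strand). Capitals mark matches to the E-box CACGTG, the NRF1-type motif, a palindrome of 10 bases, and the TATA-type motif TATAAA, searched on both strands.
MRTO4: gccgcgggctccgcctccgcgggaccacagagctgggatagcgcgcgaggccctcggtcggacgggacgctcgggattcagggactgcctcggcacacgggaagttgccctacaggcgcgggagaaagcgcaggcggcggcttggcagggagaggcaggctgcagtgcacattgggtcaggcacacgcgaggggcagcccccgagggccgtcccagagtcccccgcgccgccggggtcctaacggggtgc
DDX10: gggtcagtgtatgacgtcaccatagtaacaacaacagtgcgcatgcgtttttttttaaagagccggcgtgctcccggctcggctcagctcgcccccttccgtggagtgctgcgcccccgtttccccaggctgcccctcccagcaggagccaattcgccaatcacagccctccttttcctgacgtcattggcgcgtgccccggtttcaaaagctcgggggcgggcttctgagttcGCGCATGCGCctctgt
UTP20: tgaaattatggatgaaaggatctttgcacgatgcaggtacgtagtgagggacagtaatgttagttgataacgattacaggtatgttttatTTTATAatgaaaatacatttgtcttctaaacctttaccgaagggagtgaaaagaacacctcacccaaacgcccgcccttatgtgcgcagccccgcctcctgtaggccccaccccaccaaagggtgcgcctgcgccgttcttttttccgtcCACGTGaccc

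The MRTO4 window held none of the 3 motifs. In the GENCODE 29 annotation the MRTO4 gene starts at 19251539, so its whole window lies past that start. The DDX10 window held the NRF1-type motif close to the RefSeq start. GENCODE 29 starts the DDX10 gene at 108665025, inside the window, and the motif lies past that start. The UTP20 window held an E-box at its downstream end and TATAAA on the minus strand further upstream. Over the 38 members, 5 windows held CACGTG (13.2%), those of DDX21, UTP20, NOP10, UTP18 and UTP14A, beside 6.34% of 35116 promoters in the table. The NRF1-type motif was in 3 windows (7.89%), those of DDX10, UTP18 and DKC1, beside 1.03% of all. TATAAA was in 1 window (2.63%), that of UTP20, beside 10.7% of all. These matches are a description of the letters, and no binding was measured.

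MYC mRNA rose in MDA-MB-231 cells with MitoQ while many of the ribosome biogenesis genes fell. In MDA-MB-231, MYC measured 242, 226, 251, 269 and 285 CPM with MitoQ, against 157, 157, 167, 149 and 153 CPM in controls. The groups did not overlap, with means of 255 ± 23.1 CPM with MitoQ and 157 ± 6.74 CPM in controls (SD, n = 5 each). The log2 fold change was 0.72 ± 0.055 (SE), a 1.65-fold rise, with an adjusted p of 1.83e-09 by edgeR's quasi-likelihood test.

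In SKBR3, MYC measured 243, 262 and 270 CPM with MitoQ, against 227, 221 and 251 CPM in controls. SKBR3 control 3, at 251 CPM, lay above MitoQ library 1, so the groups overlapped. The log2 fold change was 0.13 ± 0.045, a 1.09-fold difference at an adjusted p of 0.0492 by edgeR. That call was lost in 11 of 18 alternative settings, and leaving out SKBR3 control 3 gave a log2 fold change of 0.19 with an adjusted p of 0.00182. The MitoQ effect on MYC was smaller in SKBR3 than in MDA-MB-231, by 0.55 ± 0.088 on the log2 scale, with an adjusted p of 2.90e-05 for the interaction. The plot of 6 members by library shows these levels.

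**Figure D1:**
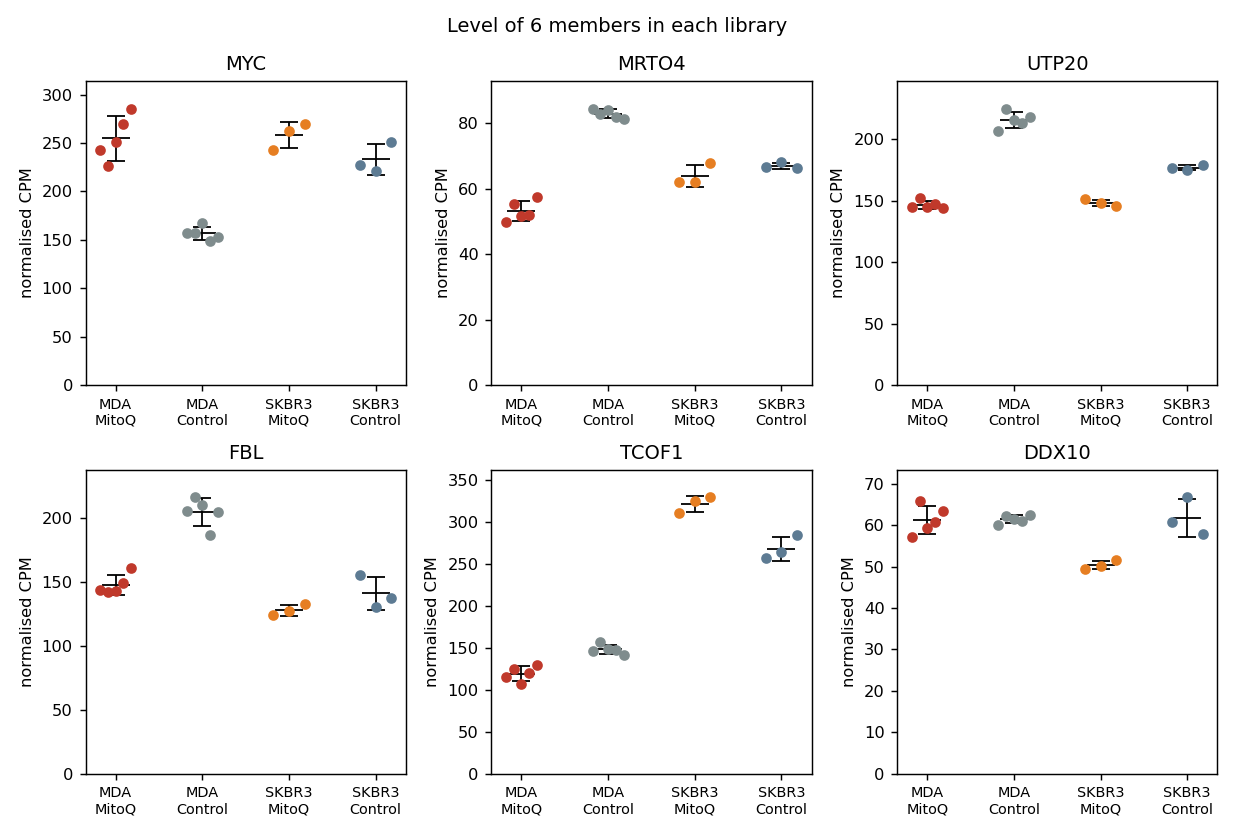
Normalised CPM (y axis, linear, from 0) of MYC, MRTO4, UTP20, FBL, TCOF1 and DDX10 in each library, in MitoQ and control groups of MDA-MB-231 (n = 5 each) and SKBR3 (n = 3 each). Points are libraries and bars show the mean ± SD. MYC lies at 226 to 285 CPM with MitoQ and 149 to 167 CPM in controls of MDA-MB-231, and TCOF1 moves in opposite directions in the 2 lines.

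In MDA-MB-231, 25 of 40 members fell and 1, MYC, rose at an adjusted p under 0.05. Over all 15304 genes tested in that line, 57.5% passed, with 27.6% lower and 29.9% higher. The median log2 fold change of the 39 members other than MYC was -0.19, against 0.01 over all genes. The called falls were small in size, with log2 fold changes between -0.62 and -0.14. The groups did not overlap for 21 of the 40 members, beside 44.1% of all genes. With the mitochondrially encoded genes left out of the counts, 1 member was higher and 26 were lower, beside 28.2% of all genes lower. Together the members took 0.714% ± 0.0253 of all counts with MitoQ and 0.758% ± 0.0108 in controls (SD, n = 5 each). These are levels relative to the total of each library, so less of these RNAs per cell and more of other RNAs cannot be told apart.

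The same comparison in SKBR3 gave 25 members that fell and 2, TCOF1 and MYC, that rose. Of all 15026 genes tested there, 28% passed, with 14.1% lower and 13.8% higher. The median log2 fold change of the members other than MYC was -0.16, against -0.00064 over all genes. Without MitoQ library 1 the number that fell was 16, with 9.35% of all genes lower, and without MitoQ library 2 it was 13, with 7.25% lower. Without SKBR3 control 2 it was 18, with 9.03% lower. Without SKBR3 control 3 it was 22, with 3 members higher and 12.9% of all genes lower. With the mitochondrially encoded genes left out of the counts, 1 member was higher and 25 were lower, beside 14.8% of all genes lower. The groups did not overlap for 25 of 40 members, beside 40% of all genes. The members' share of counts was 0.608% ± 0.00466 with MitoQ and 0.664% ± 0.00796 in controls (SD, n = 3 each).

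**Figure D2:**
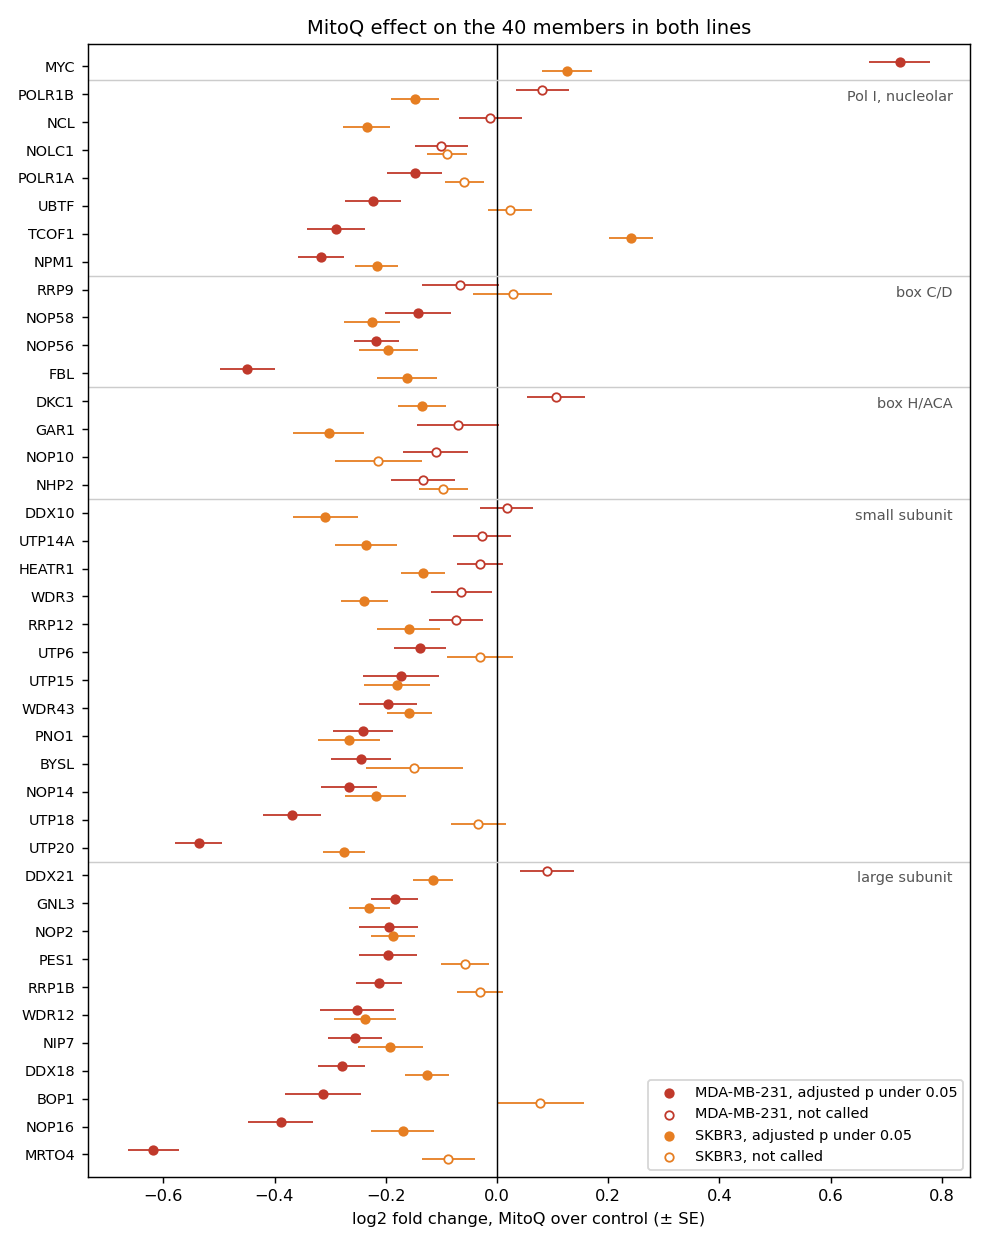
Log2 fold change of MitoQ over control (x axis) with its SE for the 40 members, grouped by role, in MDA-MB-231 and SKBR3. Filled points passed an adjusted p of 0.05. Most points lie below 0 in both lines, and MYC stands apart at 0.72 in MDA-MB-231.

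Across the lines, 15 members fell in both: NPM1, FBL, NOP56, NOP58, UTP20, UTP15, WDR43, NOP14, PNO1, NOP2, NOP16, WDR12, GNL3, NIP7 and DDX18. Among the 13785 genes tested in both lines, 6.91% fell in both. MYC was the 1 member called higher in both, beside 6.3% of all genes. A further 9 members passed as lower in MDA-MB-231 without passing in SKBR3, beside 18.1% of all genes. Another 10 passed as lower in SKBR3 without passing in MDA-MB-231, beside 5.37% of all genes. NOLC1, RRP9, NHP2 and NOP10 passed in neither line. A call in 1 line alone is not a test of a difference between lines.

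Among the polymerase I genes and the nucleolar phosphoproteins, members moved in both directions. Of 7 tested members, 4 fell in MDA-MB-231, beside 27.6% of all genes lower. The share called there in either direction was near the 57.5% of all genes. In SKBR3, 3 fell and 1 rose, beside 14.1% of all genes lower and 13.8% higher, 28% in either direction. TCOF1 moved in opposite directions in the lines. Its product, treacle, is a cofactor of RNA polymerase I transcription. In MDA-MB-231, TCOF1 measured 116, 125, 107, 120 and 129 CPM with MitoQ, against 147, 157, 149, 147 and 141 CPM in controls. All 5 MitoQ libraries lay below all 5 controls, and TCOF1 fell by 0.29 ± 0.052 on the log2 scale (adjusted p = 9.70e-05, edgeR).

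In SKBR3, TCOF1 measured 311, 325 and 329 CPM with MitoQ, against 257, 264 and 284 CPM in controls. Here every MitoQ library lay above every control, and TCOF1 rose by 0.24 ± 0.039 (adjusted p = 0.00049, edgeR). The interaction was 0.57 ± 0.076, with an adjusted p of 2.47e-06.

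The catalytic subunits of RNA polymerase I each passed in 1 line. POLR1A, the largest subunit, measured 216, 229, 194, 222 and 232 CPM with MitoQ and 241, 255, 242, 244 and 249 CPM in controls of MDA-MB-231. The groups did not overlap, and POLR1A fell by 0.15 ± 0.049 (adjusted p = 0.0138, edgeR). In SKBR3 its log2 fold change of -0.06 did not pass. POLR1B, the second-largest subunit, had a log2 fold change of 0.08 in MDA-MB-231, which did not pass, and fell by 0.15 ± 0.044 in SKBR3 (adjusted p = 0.0216, edgeR). That call was lost in 7 of 18 alternative settings.

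UBTF, which binds and opens ribosomal DNA for polymerase I, fell by 0.22 ± 0.05 in MDA-MB-231 (adjusted p = 0.000821, edgeR) and had a log2 fold change of 0.02 in SKBR3. NCL, nucleolin, an abundant nucleolar RNA-binding protein, fell by 0.23 ± 0.042 in SKBR3 (adjusted p = 0.00101, edgeR) and had a value of -0.01 in MDA-MB-231. NPM1, nucleophosmin, a nucleolar chaperone of ribosome assembly, fell in both lines. Its log2 fold change was -0.32 ± 0.041 in MDA-MB-231 and -0.22 ± 0.039 in SKBR3. Of the 31-base words in NPM1 transcripts, 23.3% also occur in other annotated genes, so counts may have been divided among them. NOLC1, a chaperone of small nucleolar RNPs, had values of -0.10 and -0.09 and passed in neither line.

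Per kilobase of the longest coding transcript, NPM1 was the most abundant member, at 639 CPM per kb with MitoQ and 808 CPM per kb in controls of MDA-MB-231. In SKBR3 it lay at 494 CPM per kb with MitoQ and 566 CPM per kb in controls. NCL was the next in both lines.

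Among the box C/D proteins, which carry out 2'-O-methylation of ribosomal RNA, 3 of 4 fell in each line. Of all genes, 27.6% were lower in MDA-MB-231 and 14.1% in SKBR3. FBL, fibrillarin, the methyltransferase itself, measured 144, 142, 143, 149 and 161 CPM with MitoQ and 205, 216, 210, 187 and 205 CPM in controls of MDA-MB-231. The groups lay well apart, and FBL fell by 0.45 ± 0.049 (adjusted p = 2.61e-07, edgeR). In SKBR3, FBL measured 124, 127 and 133 CPM with MitoQ and 155, 130 and 137 CPM in controls, with MitoQ library 3 above SKBR3 control 2. The fall there was 0.16 ± 0.054 (adjusted p = 0.0399, edgeR), smaller than in MDA-MB-231 with an interaction of 0.33 ± 0.081 (adjusted p = 0.0024). The SKBR3 call for FBL was lost in 7 of 18 alternative settings.

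The paired core proteins NOP56 and NOP58 fell in both lines. NOP56 had log2 fold changes of -0.22 ± 0.041 in MDA-MB-231 and -0.20 ± 0.053 in SKBR3. NOP58 in MDA-MB-231 measured 130, 162, 123, 141 and 139 CPM with MitoQ and 151, 151, 158, 160 and 159 CPM in controls. MitoQ library 2, at 162 CPM, was above all controls, and the fall of 0.14 ± 0.06 (adjusted p = 0.0486, edgeR) was lost in 14 of 22 alternative settings. RRP9, a U3-specific protein, had values of -0.07 and 0.03 and passed in neither line.

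The box H/ACA proteins, which act in pseudouridylation and also bind telomerase RNA, had 4 members tested. None of the 4 passed in MDA-MB-231 with edgeR, where 1, NHP2, had an unadjusted p under 0.05. There DESeq2 called 1 and limma voom 0. In SKBR3, 2 of 4 fell, beside 14.1% of all genes. GAR1 measured 43.8, 43.4 and 42.2 CPM with MitoQ and 56.9, 52.6 and 48.4 CPM in controls of SKBR3. No MitoQ library reached the lowest control, and GAR1 fell by 0.30 ± 0.064 (adjusted p = 0.00273, edgeR). In MDA-MB-231 its log2 fold change was -0.07.

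DKC1, dyskerin, the pseudouridine synthase, fell by 0.13 ± 0.043 in SKBR3 (adjusted p = 0.0305, edgeR) and had a value of 0.11 in MDA-MB-231. That call was lost in 9 of 18 alternative settings. The interaction for DKC1 was -0.20 ± 0.076 (adjusted p = 0.045). NHP2 and NOP10, the other core proteins, had values between -0.21 and -0.10 in the 2 lines and did not pass.

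The small subunit group fell in 8 of 13 members in MDA-MB-231 and in 10 of 13 in SKBR3, with none higher. Over all genes, 27.6% were lower in MDA-MB-231 and 14.1% in SKBR3. UTP20, a large scaffold protein of the processome, was among the 4 lowest members in both. It measured 144, 152, 144, 147 and 144 CPM with MitoQ and 206, 225, 215, 213 and 218 CPM in controls of MDA-MB-231. In SKBR3 it measured 151, 148 and 146 CPM with MitoQ and 176, 175 and 179 CPM in controls. In both lines every MitoQ library lay below every control. UTP20 fell by 0.54 ± 0.042 in MDA-MB-231 (adjusted p = 2.31e-09, edgeR) and by 0.28 ± 0.037 in SKBR3 (adjusted p = 0.000119, edgeR). The fall was smaller in SKBR3, with an interaction of 0.30 ± 0.057 (adjusted p = 0.000167).

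DDX10, an RNA helicase of the processome, differed between the lines. It measured 49.5, 50.2 and 51.5 CPM with MitoQ and 60.8, 66.7 and 57.8 CPM in controls of SKBR3. In MDA-MB-231 it measured 57.1, 65.9, 59.3, 60.7 and 63.5 CPM with MitoQ and 60.2, 62.3, 61.5, 61.0 and 62.6 CPM in controls. The groups were apart in SKBR3 and fully mixed in MDA-MB-231. DDX10 fell by 0.31 ± 0.058 in SKBR3 (adjusted p = 0.00135, edgeR), its value was 0.02 ± 0.047 in MDA-MB-231, and the interaction was -0.29 ± 0.076 (adjusted p = 0.00486).

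PNO1, which acts late in 40S maturation, fell in both lines. It measured 30.5, 30.9 and 32.8 CPM with MitoQ and 38.3, 36.6 and 36.6 CPM in controls of SKBR3, where the groups did not overlap. The log2 fold changes were -0.24 ± 0.054 in MDA-MB-231 and -0.27 ± 0.056 in SKBR3 (adjusted p of 0.000782 and 0.00267, edgeR). NOP14, UTP15 and WDR43 also fell in both, with values between -0.27 and -0.16. The UTP15 call was lost in 11 of 22 alternative settings in MDA-MB-231 and in 8 of 18 in SKBR3.

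UTP18, UTP6 and BYSL passed in MDA-MB-231 and did not pass in SKBR3. BYSL, of precursor 40S particles, fell by 0.25 ± 0.054 in MDA-MB-231 and had a value of -0.15 ± 0.087 in SKBR3. For UTP18, of the UTP-B part of the processome, the values were -0.37 ± 0.052 in MDA-MB-231 and -0.03 ± 0.05 in SKBR3, and the interaction was 0.38 ± 0.079 (adjusted p = 0.000566). UTP6, of the same part, measured 69.1, 74.4, 67.5, 70.8 and 66.2 CPM with MitoQ and 75.0, 74.7, 79.5, 77.2 and 82.7 CPM in controls of MDA-MB-231. The highest MitoQ library lay just under the lowest control, and UTP6 fell by 0.14 ± 0.047 (adjusted p = 0.0177, edgeR). UTP14A, WDR3, HEATR1 and RRP12 passed in SKBR3, with values between -0.24 and -0.13, and did not pass in MDA-MB-231. The SKBR3 call was lost in 14 of 18 alternative settings for RRP12 and in 7 of 18 for HEATR1.

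In the 60S group, 10 of 11 members fell in MDA-MB-231, beside 27.6% of all genes, and DDX21 did not pass. In SKBR3, 7 of 11 fell, beside 14.1% of all genes. MRTO4, a stand-in for the ribosomal stalk protein on precursor 60S particles, measured 49.9, 55.4, 51.6, 52.0 and 57.4 CPM with MitoQ and 84.5, 83.0, 84.2, 81.9 and 81.3 CPM in controls of MDA-MB-231. The gap between the groups was far wider than the spread within them, and MRTO4 fell by 0.62 ± 0.046, a 1.53-fold change (adjusted p = 1.49e-09, edgeR).

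In SKBR3, MRTO4 measured 62.1, 62.1 and 67.8 CPM with MitoQ and 66.6, 68.1 and 66.3 CPM in controls. The groups overlapped, and the value of -0.09 ± 0.047 did not pass (adjusted p = 0.191, edgeR). The interaction was 0.57 ± 0.071 (adjusted p = 9.81e-07). Of the 31-base words in MRTO4 transcripts, 12.6% occur in other annotated genes.

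NOP16, a nucleolar protein of early 60S particles, measured 38.9, 45.3, 41.1, 43.6 and 47.3 CPM with MitoQ and 57.8, 62.6, 56.1, 56.1 and 54.7 CPM in controls of MDA-MB-231. It fell by 0.39 ± 0.058 with no overlap (adjusted p = 1.19e-05, edgeR). In SKBR3 it fell by 0.17 ± 0.056 (adjusted p = 0.0353, edgeR), with MitoQ library 3 above 1 of the controls, and that call was lost in 9 of 18 alternative settings.

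PES1, BOP1 and WDR12 form the PeBoW complex of 60S maturation, and all 3 fell in MDA-MB-231, with log2 fold changes of -0.20, -0.31 and -0.25. In SKBR3, WDR12 fell by 0.24 ± 0.056, while PES1 at -0.06 and BOP1 at 0.08 did not pass. For BOP1 the interaction was 0.44 ± 0.12 (adjusted p = 0.00981).

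GNL3, nucleostemin, NIP7 and NOP2, an RNA cytosine methyltransferase, fell in both lines. Their values lay between -0.26 and -0.18 in MDA-MB-231 and between -0.23 and -0.19 in SKBR3. The SKBR3 call for NIP7 was lost in 8 of 18 alternative settings. For NOP2, 53.3% of the 31-base words occur in other annotated genes, so its counts are uncertain. RRP1B fell by 0.21 ± 0.041 in MDA-MB-231 and had a value of -0.03 in SKBR3.

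DDX18 and DDX21, RNA helicases of the nucleolus, had the smallest called falls in SKBR3. DDX18 measured 113, 110 and 114 CPM with MitoQ and 119, 123 and 120 CPM in controls of SKBR3, a fall of 0.13 ± 0.04 (adjusted p = 0.0282, edgeR). DDX21 measured 683, 683 and 720 CPM with MitoQ and 749, 730 and 745 CPM in controls of SKBR3, a fall of 0.11 ± 0.036 (adjusted p = 0.0274, edgeR). Neither pair of groups overlapped. The calls were lost in 10 of 18 alternative settings for DDX18 and in 9 of 18 for DDX21. In MDA-MB-231, DDX18 fell by 0.28 ± 0.042 (adjusted p = 1.34e-05, edgeR) and DDX21 had a value of 0.09 that did not pass.

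The deviation of each library from its own line's control mean shows how evenly the members moved. The median over the 39 members other than MYC lay between -0.29 and -0.13 in the 5 MDA-MB-231 MitoQ libraries, and between -0.015 and 0.032 in the controls, on the log2(CPM + 1) scale. In the SKBR3 libraries this median lay between -0.16 and -0.097 with MitoQ and between -0.020 and 0.005 in controls. The control deviations of each gene average 0 by construction, so control medians near 0 are not an independent comparison. MDA-MB-231 MitoQ library 2 was the nearest to its controls, with 29 of 39 members below the control mean, against 30 to 37 in the other 4 MitoQ libraries. In the SKBR3 MitoQ libraries, 32 to 35 of 39 members were below the control mean. The share of all genes below it was not counted by library. By log2 fold change, 89.7% of the 39 members were below 0 in each line. Of all genes tested, 48.6% were below 0 in MDA-MB-231 and 50.1% in SKBR3.

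**Figure D3:**
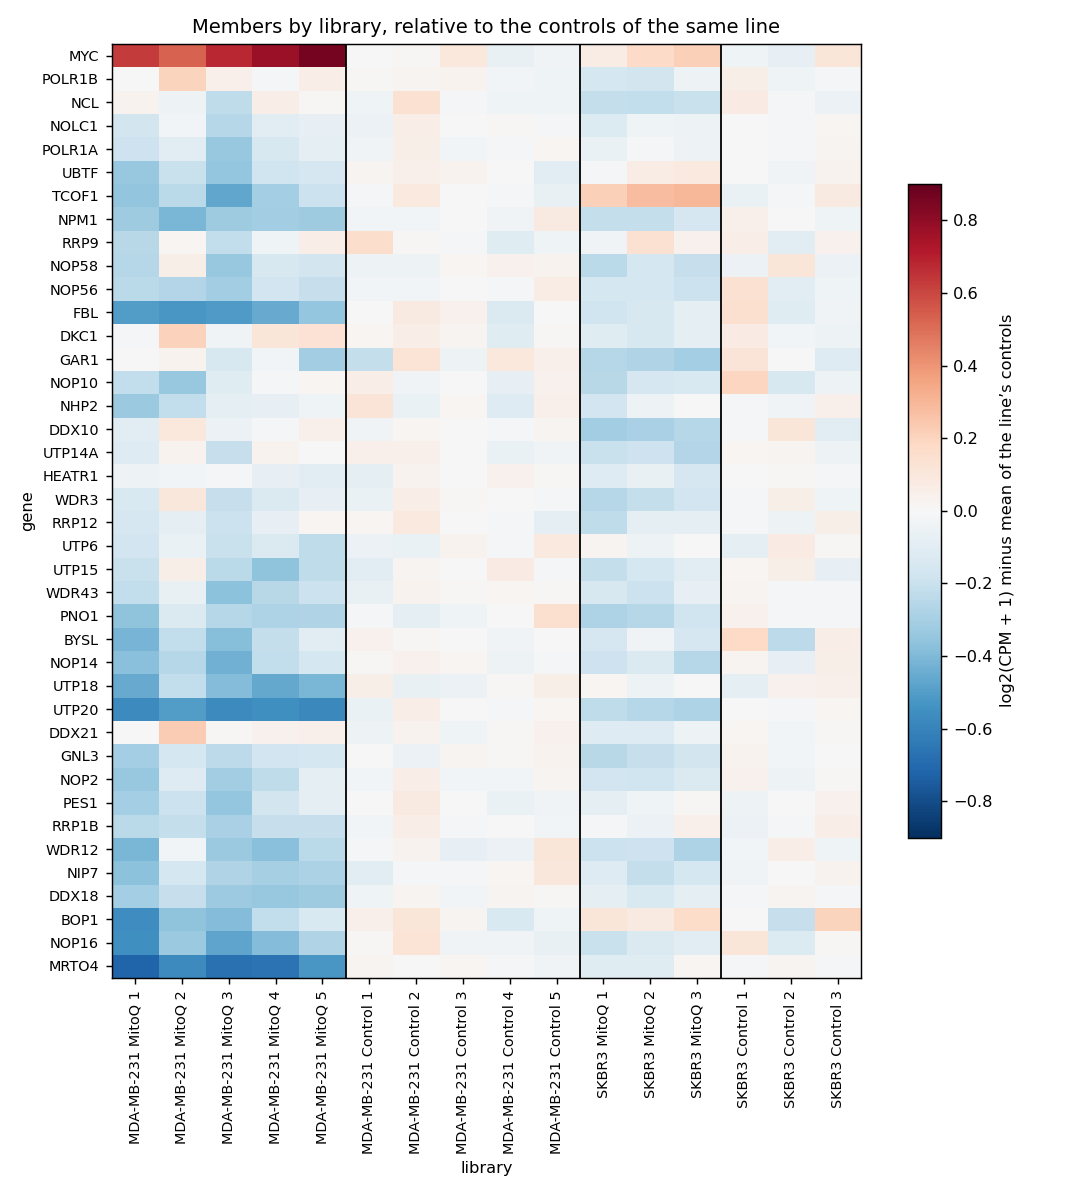
Heatmap of log2(CPM + 1) minus the mean of the same line's controls, with the 40 members in rows by role and the 16 libraries in columns, MitoQ left of control in each line. Most members are below the control mean in every MitoQ library, with medians of -0.29 to -0.13 in MDA-MB-231 and -0.16 to -0.097 in SKBR3, and the MYC row is positive in all 8 MitoQ libraries.

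A test of the interaction asked which members responded differently in the 2 lines. With the effect in MDA-MB-231 subtracted from the effect in SKBR3, 10 members were higher and 4 lower. Over all 17094 genes, 19.1% were higher and 14.9% lower, 34.1% in either direction. The share of members called in either direction was near that of all genes. The members higher in this difference were UBTF, TCOF1, FBL, UTP20, UTP18, NOP16, BOP1, MRTO4, RRP1B and DDX18. Each of them had fallen in MDA-MB-231, and its value in SKBR3 was less negative or positive. The 4 lower members were MYC, DDX10, DKC1 and POLR1B. POLR1B had an interaction of -0.18 ± 0.071 (adjusted p = 0.0467, edgeR). The calls for DKC1 and POLR1B were each lost in 18 of 27 alternative settings. Of all genes called in the interaction, 56.1% were higher with TMM scaling and 41.6% with plain library totals, and under plain totals 7 members were higher and 8 lower.

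The controls of the 2 lines were also compared in these genes. In SKBR3 controls 6 members (15%) were higher and 25 (62.5%) lower than in MDA-MB-231 controls. Of 16398 genes, 42% were higher and 44.4% lower, 86.5% in either direction. The share of members called in either direction was below that of all genes. The median log2 fold change of the members other than MYC was -0.27, against -0.02 over all genes. The groups did not overlap for 31 of 40 members, a smaller share than the 83% of all genes.

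NIP7, which acts in 60S maturation, measured 31.4, 32.2 and 33.0 CPM in SKBR3 controls, against 107, 113, 113, 115 and 122 CPM in MDA-MB-231 controls. NOP14 measured 52.4, 48.9 and 53.7 CPM in SKBR3 controls, against 144, 146, 144, 138 and 141 CPM in MDA-MB-231 controls. Both pairs of groups lay far apart, and the log2 fold changes were -1.80 ± 0.052 for NIP7 and -1.44 ± 0.044 for NOP14 (adjusted p of 1.94e-18 and 5.84e-18, edgeR). NOLC1 and RRP12, a factor in the export of precursor particles, had the next smallest p among the lower members. NOLC1 averaged 182 ± 1.9 CPM in SKBR3 controls and 427 ± 12.2 CPM in MDA-MB-231 controls, and RRP12 averaged 39.5 ± 1.47 CPM in SKBR3 controls and 94.0 ± 4.06 CPM in MDA-MB-231 controls (SD, n = 3 and n = 5).

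The members higher in SKBR3 controls were TCOF1, NOP2, DDX21, MYC, NHP2 and GNL3. TCOF1 averaged 268 ± 14.2 CPM in SKBR3 controls and 148 ± 5.84 CPM in MDA-MB-231 controls, a log2 fold change of 0.87 ± 0.042 (adjusted p = 1.95e-14, edgeR). MYC averaged 233 ± 15.9 CPM in SKBR3 controls and 157 ± 6.74 CPM in MDA-MB-231 controls, a log2 fold change of 0.59 ± 0.045 (adjusted p = 6.65e-11, edgeR). Its level with MitoQ in MDA-MB-231, 255 ± 23.1 CPM, overlapped that in SKBR3 controls. NOP2 and DDX21 differed by 0.60 ± 0.041 and 0.52 ± 0.037 (adjusted p of 8.92e-12 and 2.06e-11, edgeR).

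**Figure D4:**
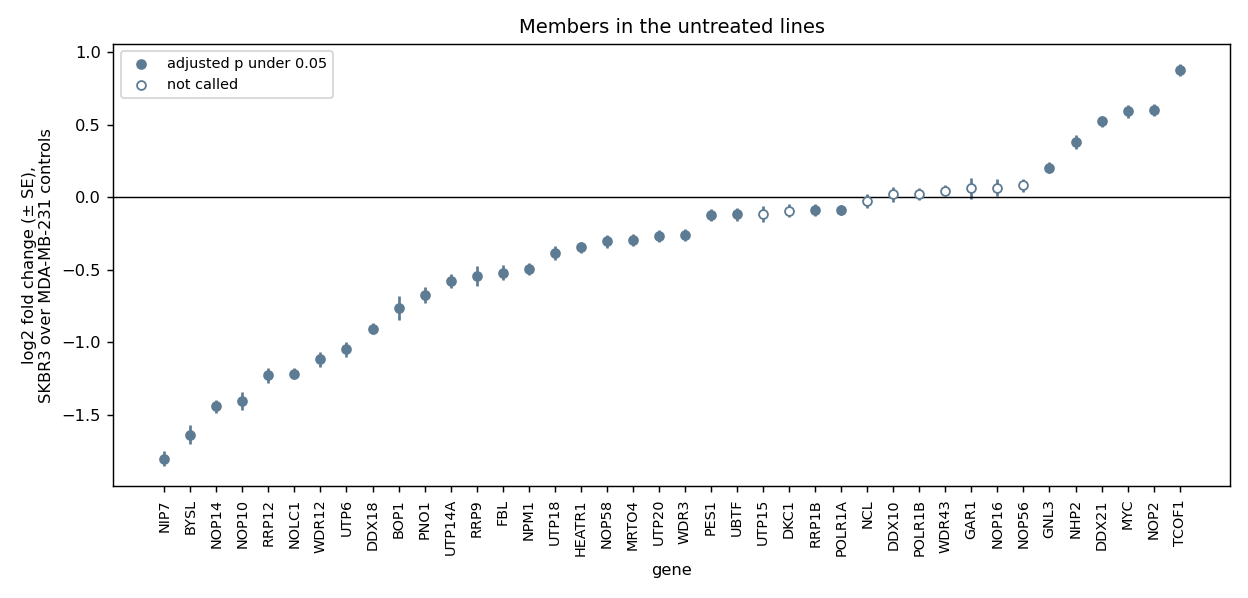
Log2 fold change of SKBR3 controls over MDA-MB-231 controls (y axis) with its SE for the 40 members, sorted by value, with filled points past an adjusted p of 0.05. TCOF1 is highest at 0.87 and NIP7 lowest at -1.80.

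Genes whose products bind or oppose MYC were counted next. Of the MAX-network partners and antagonists, 6 rose and 2 fell of 11 tested in MDA-MB-231, and 3 rose and none fell of 12 in SKBR3. Of all genes, 57.5% were called in MDA-MB-231 and 28% in SKBR3, so the share called in SKBR3 was near that of all genes. MXD1, which competes with MYC for MAX, averaged 44.1 ± 2.83 CPM with MitoQ and 15.8 ± 0.76 CPM in controls of MDA-MB-231, a log2 fold change of 1.50 ± 0.06 (adjusted p = 1.50e-13, edgeR). In SKBR3 it averaged 25.7 ± 1.92 CPM with MitoQ and 25.5 ± 0.98 CPM in controls, and the interaction was -1.47 ± 0.096 (adjusted p = 2.40e-11).

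MXD3, of the same family, fell by 0.78 ± 0.11 in MDA-MB-231 (adjusted p = 6.55e-06, edgeR) and rose by 0.31 ± 0.088 in SKBR3 (adjusted p = 0.0153, edgeR). MYCL, a MYC paralog, had the highest value in SKBR3, 0.86 ± 0.26 (adjusted p = 0.022, edgeR), at low levels of 1.90 ± 0.319 CPM with MitoQ and 1.05 ± 0.252 CPM in controls (SD, n = 3 each). MAX itself passed in neither line. MLXIP, the partner of MLX, had the lowest called value in SKBR3, 0.21 ± 0.043 (adjusted p = 0.00239, edgeR).

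Of 7 genes for MYC protein turnover, 2 rose and 5 fell in MDA-MB-231, beside 29.9% and 27.6% of all genes. SKP2, a ubiquitin ligase subunit, fell by 0.78 ± 0.067 (adjusted p = 1.11e-08, edgeR), and HUWE1, another ubiquitin ligase, rose by 0.51 ± 0.047 (adjusted p = 2.69e-08, edgeR). None of the 7 passed in SKBR3 with edgeR, where 1, SKP2, had an unadjusted p under 0.05. MYC protein was not measured.

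Other genes known to be activated by MYC were split in both lines. In MDA-MB-231, 4 rose and 10 fell of 20, beside 29.9% and 27.6% of all genes. In SKBR3, 4 rose and 10 fell of 19, beside 13.8% and 14.1% of all genes. SHMT2, a mitochondrial enzyme of one-carbon metabolism, averaged 504 ± 42.5 CPM with MitoQ and 203 ± 9.66 CPM in controls of MDA-MB-231 (SD, n = 5 each), a rise of 1.33 ± 0.055 (adjusted p = 2.21e-13, edgeR). HSPE1, a mitochondrial chaperonin, averaged 115 ± 0.912 CPM with MitoQ and 253 ± 5.92 CPM in controls, a fall of 1.11 ± 0.039 (adjusted p = 2.07e-14, edgeR). In SKBR3 the highest value was that of TERT, the telomerase catalytic subunit, which rose to 3.22 ± 0.335 CPM with MitoQ, against 1.55 ± 0.353 CPM in controls (SD, n = 3 each; adjusted p = 0.00181, edgeR). The lowest was that of TFRC, the transferrin receptor, at -0.44 ± 0.037 (adjusted p = 3.04e-06, edgeR).

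Ribosome biogenesis genes outside the module had more called falls than rises in both lines. Of 35 other small subunit factors, 4 rose and 13 fell in MDA-MB-231, and none rose and 20 fell in SKBR3. Of 42 other 60S factors, 7 rose and 16 fell in MDA-MB-231, and none rose and 19 fell in SKBR3. Over all genes, 29.9% rose and 27.6% fell in MDA-MB-231, and 13.8% rose and 14.1% fell in SKBR3. The medians were -0.11 in MDA-MB-231 for both lists, and -0.17 and -0.13 in SKBR3.

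Among the other small subunit factors, IMP3, a U3 snoRNP protein, fell by 0.59 ± 0.062 and AATF rose by 0.29 ± 0.05 in MDA-MB-231. In SKBR3, LTV1, an assembly factor of the 40S beak, had the lowest value at -0.35 ± 0.054 and NOL10 the highest called value at -0.13 ± 0.047. Among the other 60S factors, WDR74 fell by 0.41 ± 0.057 and RSL24D1 rose by 0.50 ± 0.058 in MDA-MB-231. In SKBR3 the called values ran between those of NIFK at -0.37 ± 0.052 and LSG1 at -0.13 ± 0.043.

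For other polymerase I subunits and factors, 1 of 11 rose and 5 fell in MDA-MB-231, and 2 fell in SKBR3. Over all genes, 27.6% were lower and 29.9% higher in MDA-MB-231, and 14.1% were lower in SKBR3. Of this list, 45.5% were lower in MDA-MB-231 and 18.2% in SKBR3. The share called in either direction in MDA-MB-231 was near the 57.5% of all genes. ZNRD1, a polymerase I subunit, fell by 0.75 ± 0.21 and TAF1B, of the promoter selectivity factor SL1, rose by 0.13 ± 0.054 in MDA-MB-231. TWISTNB and TAF1D fell by 0.34 ± 0.049 and 0.24 ± 0.04 in SKBR3. For snoRNP assembly, 1 of 11 rose and 5 fell in MDA-MB-231, beside the same shares of all genes. In SKBR3, 4 fell, 36.4% of the list, beside 14.1% of all genes lower. ZNHIT6, a box C/D assembly factor, rose by 0.28 ± 0.058 in MDA-MB-231 and fell by 0.51 ± 0.049 in SKBR3, with an interaction of -0.75 ± 0.086 (adjusted p = 2.98e-07, edgeR). RUVBL1, an ATPase of the same pathway, fell by 0.49 ± 0.051 in MDA-MB-231, and SNU13 fell by 0.18 ± 0.063 in SKBR3.

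The RNA exosome, which trims precursor ribosomal RNA, had 1 gene of 14 higher and 8 lower in MDA-MB-231, and 5 lower in SKBR3, where 27.6% and 14.1% of all genes were lower. EXOSC9 fell by 0.35 ± 0.048 and EXOSC8 rose by 0.10 ± 0.043 in MDA-MB-231. C1D and MTREX, cofactors of the exosome, fell by 0.34 ± 0.094 and 0.16 ± 0.042 in SKBR3.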

How the data were processed

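RNA-seq of 16 libraries was used, in 4 groups of line and treatment. The deposited values were estimated counts by gene, all of them whole numbers, and the submitters' processing notes name Salmon, edgeR and GRCh38 without versions. How transcripts were summed to genes was not stated there. Genes were matched by Ensembl ID to GENCODE 29 on GRCh38 for position and length.

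Low genes were removed by edgeR's filterByExpr and libraries were scaled by TMM. Differences were tested by edgeR 4.0.16 under R 4.3.3, using its robust quasi-likelihood F test (two-sided), with Benjamini-Hochberg adjustment over all genes tested and a threshold of 0.05. Every adjusted p in the report comes from this test unless another tool is named, and a member is called when it passes. An SE was obtained by dividing the size of the log2 fold change by the root of its F value. The treatment effect was tested line by line, the difference of effects as an interaction over all 16 libraries, and the lines over their controls. Printed CPM values were scaled over all 16 libraries together. Alternatives included DESeq2 1.42.0, limma 3.58.1 (voom), other scalings and filters, a replicate block and leaving out each library. The code was tested on simulated data.

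The members and lists were chosen with earlier results of these data known. Members named by library were MYC and, per treatment comparison, the 4 called members with the highest and the 4 with the lowest log2 fold change. For the interaction and the lines they were the 4 called members with the smallest p per direction, and for each other list the called genes with the highest and the lowest value. Names beyond these were added as the remaining members of each role. Between replicates the smallest chi-square per degree of freedom was 2.58, so no library was taken as a repeat of another.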

Additional observations from a re-analysis of the deposited data

Results flagged for a closer look

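Single libraries stood apart from the rest of their group in 8 of 82 groups screened in MDA-MB-231, those of the 40 members and of their summed share of counts, where chance flags about 1 in 20. The measure is the gap to the nearest library over the range of the group. In MDA-MB-231 MitoQ library 2, NPM1 was lowest at 1066 CPM (0.883), and UTP18 at 70.5 CPM (0.732), DDX18 at 198 CPM (0.716) and DDX21 at 613 CPM (0.807) were highest. Among MDA-MB-231 controls, NCL was highest in control 2 at 1071 CPM (0.863), NPM1 and NOP56 were highest in control 5 at 1498 CPM (0.74) and 356 CPM (0.721), and WDR43 was lowest in control 1 at 153 CPM (0.773). SKBR3 groups of 3 were not screened this way.

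The MitoQ effect differed between the lines for 14 of the 40 members in the interaction test, near the 34.1% of all genes called there. As the effect in SKBR3 minus that in MDA-MB-231 on the log2 scale, it was 0.573 for both MRTO4 and TCOF1, 0.437 for BOP1, 0.379 for UTP18, 0.33 for FBL, 0.304 for UTP20, 0.289 for UBTF, 0.262 for NOP16, 0.226 for RRP1B and 0.197 for DDX18. It was -0.555 for MYC, -0.285 for DDX10, -0.199 for DKC1 and -0.185 for POLR1B. The causes of these differences were not tested.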

How the results depend on the processing

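The limits come first. The called falls of members were small, so a test against a 1.2-fold change kept few of them, and the SKBR3 counts rest on 3 libraries a group. Counts of called members kept within 1.5 times of the reported value in the settings not named here. In MDA-MB-231, plain library totals gave 4 members higher, and the 1.2-fold test gave 5 lower. In SKBR3, 1 member was higher with a threshold of 0.01, DESeq2 size factors, DESeq2, the mitochondrially encoded genes left out, the members left out of the scaling, and one fit over all libraries, and 0 with the 1.2-fold test. The number lower there was 14 with the 0.01 threshold, 11 with one fit over all libraries and 0 with the 1.2-fold test. Of all genes, 7.99%, 6.25% and 0.639% were lower in those settings. The share of all genes called in SKBR3 was 28% as reported, 16.2% at 0.01, 16.3% with one fit, 16.8% without MitoQ library 2, 18.6% without the filter and 3.14% with the 1.2-fold test, and in MDA-MB-231 it was 57.5% as reported, 35.9% without the filter and 28.8% with the 1.2-fold test. For the interaction, 2 members were lower with the 0.01 threshold, without the filter, with the members left out of the scaling and with the replicate block. Plain totals gave 8 lower and a median of -0.012 against 0.080 as reported, and the 1.2-fold test gave 2 higher and 1 lower, with 16.8% of all genes called against 34.1%, and 20.2% without the filter. For the lines, the median was -0.25 with plain totals, -0.33 without the filter, -0.19 with a filter at 1 CPM and -0.24 without mitochondrially encoded genes, against -0.27, and 10 members were higher with the 1 CPM filter. The cause of these shifts was not tested.

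Leaving out 1 library gave 1 to 2 members higher and 22 to 27 lower in MDA-MB-231, with a median between -0.20 and -0.16. Without control 5 it was 22, with 26.4% of all genes lower, and without MitoQ library 2 it was 27, with 27.7%. In SKBR3, leaving out 1 library gave 1 to 3 higher and 13 to 22 lower, with a median between -0.18 and -0.12. The lowest count there was without MitoQ library 2, with 7.25% of all genes lower. The interaction gave 9 to 12 higher and 2 to 5 lower, with a median between 0.056 and 0.117, and the lines gave 6 to 7 higher and 21 to 25 lower, with a median between -0.29 and -0.23. Values that changed sign had not passed in any setting. In MDA-MB-231 these were NCL at 0.048 and UTP14A at 0.034 and HEATR1 at 0.030 with plain totals, NCL at 0.0077 and DDX10 at -0.0040 with limma voom, and DDX10 at -0.0049 with one fit. With 1 library left out, NCL lay between -0.034 and 0.035, DDX10 between -0.0032 and 0.041 and UTP14A between -0.046 and 0.011 in MDA-MB-231, and UTP6 between -0.069 and 0.027, UTP18 between -0.071 and 0.0067, RRP1B between -0.055 and 0.011 and RRP9 between -0.0062 and 0.078 in SKBR3.

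Replicate numbers did not pair the libraries: deviations of same-numbered libraries correlated between -0.154 and 0.117. With the replicate block, 1 member was higher and 24 lower in MDA-MB-231, 2 higher and 26 lower in SKBR3, and 6 higher and 24 lower between the lines. Of all genes, 26.3%, 16% and 43.3% were lower there, in that order.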
